A study of Mus musculus with 22 samples.

Results

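The genes studied here encode 10 core transcription factors and cofactors of erythroid cells, *Tal1*, *Lyl1*, *Lmo2*, *Ldb1*, *Runx1*, *Cbfa2t3*, *Zfpm1*, *Gfi1b*, *Klf1* and *Nfe2*. Their loci were taken as the gene body in the GENCODE annotation of mm10 plus 50 kb on each side, out of 21938 protein-coding genes with such a window. Peaks were followed at these loci in 22 lists from ChIP-seq in G1ER (G1E-ER4) cells. The loci held 53 of 16244 regions of H3K4me3, 58 of 24299 of H3K27ac and 88 of 43987 of CTCF, where a region is the union of overlapping peaks from all lists of that mark. G1ER is a clonal line of mouse erythroid progenitors that lacks its own GATA1 and carries GATA1 fused to an estrogen receptor domain, so β-estradiol switches GATA1 on. All cells were kept in stem cell factor and erythropoietin. The cells were untreated (0 h) or harvested 2, 6, 12 or 24 h after β-estradiol was added. Each histone mark had 2 replicate lists at each of the 5 time points, and CTCF had 1 list at 0 h and 1 at 24 h. Nothing in the labels states that replicates came from separate cultures, so the spread between them may be technical.

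The products of these genes work together. TAL1, or its close relative LYL1, binds E-box motifs as a dimer with an E protein, and LMO2 and LDB1 bridge it to GATA1 at a nearby GATA motif. Dimers of LDB1 can bring distant enhancers to promoters, and the complex recruits RUNX1 and the corepressor ETO2, the product of *Cbfa2t3*. FOG1, encoded by *Zfpm1*, is a cofactor that GATA1 needs at many of its targets, and GFI1B is a repressor that acts with LSD1. KLF1 binds CACCC boxes of red cell genes, and NFE2 p45 binds the β-globin locus control region with a small MAF protein. H3K4me3 lies mainly over active promoters, H3K27ac over active promoters and enhancers, and CTCF at boundaries and loop anchors.

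The lists give positions and a score for each peak, with no read counts, so depth is unknown. Scores are therefore not comparable between lists, and those printed by time are only a description. H3K4me3 lists held 12925 to 14452 peaks, H3K27ac lists 17247 to 18333, and the CTCF lists 33193 at 0 h and 41473 at 24 h. The longest peak of a histone list was 8769 to 9200 bp. As a check of the label, 6 of 7 erythroid marker genes (*Slc4a1*, *Tfrc*, *Epor*, *Hba-a1*, *Hbb-bs* and *Hbb-bt*) had an H3K4me3 peak within 1 kb in all 10 lists, with *Alas2* in 9. No list had either mark at the start sites of 3 lymphoid genes (*Pax5*, *Cd3e*, *Cd4*) or of 4 genes used outside blood (*Alb*, *Myod1*, *Neurod1*, *Krt5*). Of 7 mast cell and myeloid genes, *Spi1* had both marks in all lists, *Ms4a2*, *Kit* and *Cpa3* had H3K4me3 in 9, 8 and 7 lists, and *Mpo*, *Elane* and *Csf1r* had none of either mark.

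Sequences are shown for the places the results turn on, in GRCm38, the assembly behind mm10. Capitals mark GATA motifs, meaning GATA preceded by A or T and followed by A or G, on either strand. RefSeq promoter sequences (GRCm38.p6) matched 8 of the 10 genes, with 13 promoters in all, and *Lmo2* and *Nfe2* were not matched. The 250 bases before the start are given for *Tal1*, whose start site had no peak of either histone mark, for *Zfpm1*, whose H3K4me3 peak was missing at 24 h, and for *Klf1*, which kept both marks. They lie at chr4:115056176-115056425, chr8:122281891-122282140 and chr8:84901732-84901981, all on the plus strand.

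*Tal1* promoter: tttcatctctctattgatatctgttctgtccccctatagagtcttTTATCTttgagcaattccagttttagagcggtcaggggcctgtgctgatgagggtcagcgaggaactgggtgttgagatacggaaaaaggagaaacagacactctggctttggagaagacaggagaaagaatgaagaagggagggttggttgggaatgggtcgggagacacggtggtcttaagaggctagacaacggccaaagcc
*Zfpm1* promoter: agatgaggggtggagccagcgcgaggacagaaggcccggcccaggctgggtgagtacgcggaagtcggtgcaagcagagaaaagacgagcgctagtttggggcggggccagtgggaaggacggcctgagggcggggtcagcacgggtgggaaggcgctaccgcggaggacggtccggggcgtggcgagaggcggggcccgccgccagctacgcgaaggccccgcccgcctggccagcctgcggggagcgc
*Klf1* promoter: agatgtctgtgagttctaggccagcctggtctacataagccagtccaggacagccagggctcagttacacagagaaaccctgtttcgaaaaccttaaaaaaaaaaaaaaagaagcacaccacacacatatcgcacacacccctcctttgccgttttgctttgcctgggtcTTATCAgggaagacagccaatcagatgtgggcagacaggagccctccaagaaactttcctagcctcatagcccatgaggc

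The *Tal1* promoter holds 1 GATA motif, the *Klf1* promoter 1 and the *Zfpm1* promoter 0, and 5 of the 13 promoters held one. Among 32851 RefSeq promoters, 26.5% held a GATA motif in the same 250 bases. CACCC, the KLF motif, was in 11 of the 13 promoters and in 52.0% of all, 3 times in *Zfpm1* and 1 time in *Klf1*. GGAA, the ETS core, was in all 13 and in 93.4% of all promoters. The E-box motifs CAGATG and CAGCTG were in 2 of 13, *Klf1* and *Cbfa2t3*, against 25.5% of all.

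For distal H3K27ac regions, the 300 bases at the middle of the stretch shared by the lists are given, on the plus strand. They are the region gained in an intron of *Cbfa2t3* (chr8:122665940-122666239), the region that lengthened beyond *Zfpm1* (chr8:122349846-122350145), the region that lengthened upstream of *Cbfa2t3* (chr8:122735993-122736292), the constant region beyond *Tal1* (chr4:115095921-115096220) and the region gained in a *Runx1* intron (chr16:92715584-92715883).

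*Cbfa2t3* intron: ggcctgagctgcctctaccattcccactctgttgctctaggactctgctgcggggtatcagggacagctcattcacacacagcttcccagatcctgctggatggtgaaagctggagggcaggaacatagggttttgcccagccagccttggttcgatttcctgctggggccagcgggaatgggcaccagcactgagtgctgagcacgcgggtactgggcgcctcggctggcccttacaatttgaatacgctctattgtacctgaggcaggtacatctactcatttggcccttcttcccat
*Zfpm1* downstream: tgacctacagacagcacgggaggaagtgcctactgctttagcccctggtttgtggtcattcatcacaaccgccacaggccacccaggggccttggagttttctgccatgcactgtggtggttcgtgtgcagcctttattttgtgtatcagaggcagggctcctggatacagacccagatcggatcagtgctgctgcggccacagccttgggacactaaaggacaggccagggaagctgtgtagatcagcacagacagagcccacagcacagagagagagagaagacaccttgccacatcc
*Cbfa2t3* upstream: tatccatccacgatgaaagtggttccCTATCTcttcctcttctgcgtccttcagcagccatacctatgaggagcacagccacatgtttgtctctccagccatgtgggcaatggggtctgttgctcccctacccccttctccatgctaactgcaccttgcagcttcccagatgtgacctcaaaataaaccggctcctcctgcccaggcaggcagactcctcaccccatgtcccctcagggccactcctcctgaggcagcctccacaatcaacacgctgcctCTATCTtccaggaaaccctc
*Tal1* downstream: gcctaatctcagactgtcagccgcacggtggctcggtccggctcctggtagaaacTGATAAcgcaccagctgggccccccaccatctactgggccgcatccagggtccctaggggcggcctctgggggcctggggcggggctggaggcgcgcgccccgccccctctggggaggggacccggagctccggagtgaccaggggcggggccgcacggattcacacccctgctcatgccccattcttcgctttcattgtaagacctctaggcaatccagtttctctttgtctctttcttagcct
*Runx1* intron: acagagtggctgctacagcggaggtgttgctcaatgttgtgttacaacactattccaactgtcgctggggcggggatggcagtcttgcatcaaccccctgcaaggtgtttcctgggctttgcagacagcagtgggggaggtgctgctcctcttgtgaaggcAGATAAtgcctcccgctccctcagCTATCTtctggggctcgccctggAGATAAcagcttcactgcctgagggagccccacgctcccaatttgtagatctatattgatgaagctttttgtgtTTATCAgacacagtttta

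These hold 0, 0, 2, 1 and 4 GATA motifs. The GATA motif of the *Tal1* region lies close to a CAGCTG E-box, the only E-box motif of that window. Over the 25 distal H3K27ac regions of the loci that were present in at least 2 lists, 13 windows (52.0%) held a GATA motif, against 51.3% of 12047 such windows across the genome. Counted over the whole region, GATA motifs numbered 0.502 to 6.00 per kb, with a median of 1.75 per kb against 2.29 over all distal regions. It was 1.24 per kb in the *Cbfa2t3* intron, 1.61 beyond *Zfpm1*, 2.27 upstream of *Cbfa2t3*, 1.61 beyond *Tal1* and 2.52 at the *Runx1* region, which are at percentiles 18.7, 29.0, 49.4, 28.9 and 57.1 of all distal regions. A match to these letters is a description and not a binding site.

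To follow the promoters, peaks at the start sites of the 10 genes were compared across the time course. Distances are from the main start site to the middle of a region, positive in the direction of transcription. A start site region is one with a GENCODE start of a protein-coding transcript of the gene inside it or within 1 kb. There were 18, of which 13 were of H3K4me3 and 5 of H3K27ac. H3K4me3 was found at the start sites of 9 genes and H3K27ac at those of 4, *Lmo2*, *Runx1*, *Cbfa2t3* and *Klf1*. *Lyl1*, *Ldb1*, *Zfpm1*, *Gfi1b* and *Nfe2* had H3K4me3 without an H3K27ac peak in any list, and *Tal1* had neither.

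**Figure D1:**
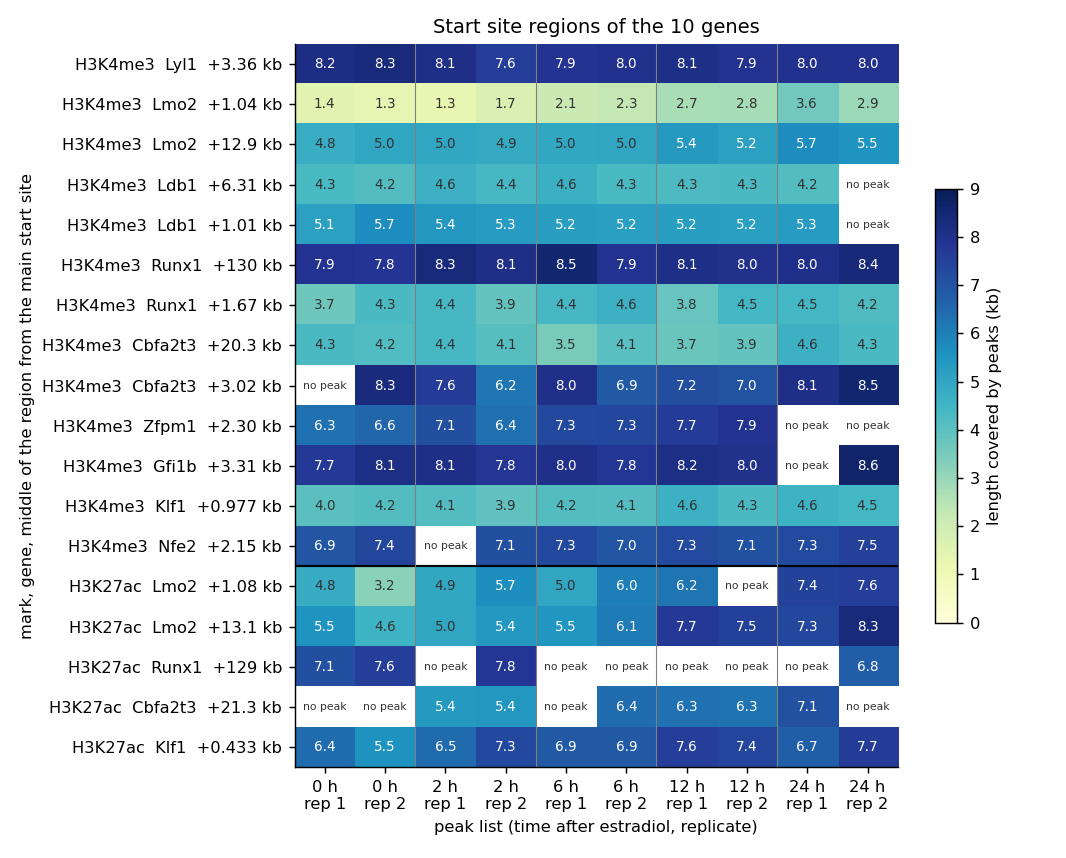
Length covered by peaks (kb, color and number) in each start site region (rows, with the mark, the gene and the distance of the region's middle from the main start site) in each of the 10 lists of that mark (columns, 2 replicates at each time point). White cells are lists with no peak in the region, which include both 24 h lists at *Zfpm1* for H3K4me3.

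At *Klf1*, on chromosome 8 (84901928-84905291, plus strand), both marks were present in all lists. The H3K4me3 region (chr8:84900592-84905218) covered 4011 and 4167 bp at 0 h, 4149 and 3933 bp after 2 h, 4157 and 4144 bp after 6 h, 4625 and 4316 bp after 12 h, and 4585 and 4457 bp after 24 h. The 24 h lists lay above the 0 h lists without overlap, but the log2 difference of 0.14 (SE 0.05) was not called (limma, adjusted p = 0.339). Here and throughout, the difference is 24 h minus 0 h of log2(covered bp + 200), tested with limma over all regions of the mark, and called means an adjusted p under 0.05. H3K27ac at *Klf1* (chr8:84898458-84906264) ranged from 5526 to 7656 bp, and its difference of 0.26 (SE 0.11) was not called either (limma, adjusted p = 0.239).

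*Lmo2* had H3K4me3 regions at a distal promoter and a proximal promoter, centered 1.04 and 12.9 kb from the main start, and both promoters carried both marks. The called rises in covered length at start sites were at this gene. H3K4me3 at the distal promoter (chr2:103957147-103960917) covered 1450 and 1308 bp at 0 h, 1296 and 1703 bp after 2 h, 2125 and 2306 bp after 6 h, 2725 and 2772 bp after 12 h, and 3602 and 2935 bp after 24 h. All lists from 6 h on lay above all lists at 0 h and 2 h, and the peak scores were 141.1 and 107 in the 0 h lists and 357 and 423 in the 24 h lists. The mean went from 1379 ± 100.4 bp to 3268.5 ± 472 bp (SD, n = 2 each), a log2 difference of 1.13 (SE 0.13, limma, adjusted p = 0.00866). The difference among the 5 time points was called too (limma F-test, adjusted p = 0.0226). Without the 0 h replicate 2 list, the call at 24 h was lost (limma, adjusted p = 0.0636). H3K27ac at the same promoter (chr2:103955200-103962959) was 4805 and 3229 bp at 0 h and 7419 and 7577 bp after 24 h, but 12 h replicate 2 had no peak there and the difference of 0.89 (SE 1.40) was not called (limma, adjusted p = 0.781).

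At the proximal *Lmo2* promoter, H3K27ac (chr2:103966672-103975417) covered 5500 and 4593 bp at 0 h, 4967 and 5405 bp after 2 h, 5478 and 6089 bp after 6 h, 7730 and 7515 bp after 12 h, and 7344 and 8309 bp after 24 h. The lists at 12 h and 24 h all lay above the earlier ones. The log2 difference was 0.62 (SE 0.11, limma, adjusted p = 0.0253), and it was not called without 0 h replicate 2 (adjusted p = 0.103) or without 24 h replicate 2 (adjusted p = 0.107). The call was also lost with a replicate block (limma, adjusted p = 0.0543) and with the 4 lists at 0 h and 24 h alone (limma, adjusted p = 0.0982). The scores of these peaks ran the other way, with 538 and 854 in the 0 h lists and 224 and 85.3 in the 24 h lists. Scores are not comparable between lists of unknown depth. With only peaks at or above the median score of all lists, the region was lost instead, with a log2 difference of −4.71 (limma, adjusted p = 1.65e-05). H3K4me3 there (chr2:103968082-103973792) was 4773 and 4963 bp at 0 h and 5700 and 5495 bp after 24 h, a difference of 0.19 (SE 0.05) that was not called (limma, adjusted p = 0.154).

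*Zfpm1*, which encodes FOG1, was the gene whose start site lost its peak. Its H3K4me3 region (chr8:122280461-122288427) covered 6316 and 6574 bp at 0 h, 7105 and 6363 bp after 2 h, 7295 and 7343 bp after 6 h, and 7657 and 7924 bp after 12 h, and neither list had a peak at 24 h. At 6 h and 12 h the peaks were longer than at 0 h, while their scores were 490 and 414 in the 0 h lists and 267 and 197 in the 12 h lists. The log2 difference was −5.05 (SE 0.06, limma, adjusted p = 8.08e-09), and it was called under all 19 alternatives that could test the region, with adjusted p of 1.56e-09 to 0.00569. Its size depends on the 200 bp added, and the 24 h lists, both at 0, have no spread. With only peaks at or above the median score of all lists, the region could not be tested. A start that lost the mark and a domain longer than the lists hold cannot be told apart.

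The H3K4me3 start site regions of the other genes were not called, and several were missing in a single list. *Lyl1* (chr8:84700600-84709038) had 7608 to 8331 bp in all 10 lists. The upstream *Runx1* promoter P1 (chr16:92822161-92826798) had 3682 to 4630 bp, and the P2 promoter (chr16:92692286-92700876) had 7840 to 8537 bp, in all lists. *Gfi1b* (chr2:28614318-28622943) had 7743 to 8617 bp and no peak in 24 h replicate 1. *Nfe2* (chr15:103249438-103257135) had 6926 to 7533 bp and no peak in 2 h replicate 1. The log2 differences of these *Lyl1*, *Runx1*, *Gfi1b* and *Nfe2* regions ran from −2.62 for *Gfi1b* to 0.12 for *Runx1* P1.

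*Cbfa2t3*, encoding ETO2, and *Ldb1* each had a pair of H3K4me3 start site regions. The downstream *Cbfa2t3* start (chr8:122676442-122681153) had 3498 to 4638 bp in all lists. The upstream start (chr8:122691390-122700782) had 6207 to 8524 bp and no peak in 0 h replicate 1. The log2 differences were 0.07 (SE 0.08, limma, adjusted p = 0.773) and 2.71 (SE 1.40, adjusted p = 0.521), and neither was called. At *Ldb1*, both regions (chr19:46036264-46040950 and chr19:46041050-46046751) were absent in 24 h replicate 2 and had 4166 to 4644 bp and 5139 to 5702 bp in the other lists. Their differences of −2.25 (SE 1.15) and −2.42 (SE 1.24) were not called either (limma, adjusted p = 0.514 for both). They lie 99 bp apart and together span 10488 bp, which is more than the longest peak of any histone list.

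H3K27ac at the *Runx1* P2 promoter (chr16:92692838-92700619) was present in 4 of 10 lists, with 7116 and 7577 bp at 0 h, 7782 bp in 2 h replicate 2 and 6783 bp in 24 h replicate 2. At the downstream *Cbfa2t3* start (chr8:122674240-122681373) it was in 6 lists, with no peak at 0 h, 5363 and 5440 bp at 2 h, 6429 bp in 6 h replicate 2, 6307 and 6267 bp at 12 h, and 7079 bp in 24 h replicate 1. Replicates disagreed at 2 of 5 time points for each of these regions, and neither difference was called (limma, adjusted p = 0.55 and 0.552).

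Long peaks were found at many of these regions. Peaks of 6 kb or more occurred in 8 of the 53 H3K4me3 regions (15.1%, against 2.35% of all regions) and in 17 of the 58 H3K27ac regions (29.3%, against 7.37%). Over all lists, the median score of H3K4me3 peaks was 1290.2 for lengths of 2 to 4 kb, 488 for 6 to 7 kb, 269 for 7 to 8 kb and 108 for 8 kb or longer. H3K27ac peaks showed the same order, with median scores of 450.4, 220.2, 125 and 71.6. Peaks under 1 kb scored low too, with medians of 91.2 for H3K4me3 and 71.2 for H3K27ac. The lowest score in any list was 50. Of H3K27ac regions with a peak at a time point, 5.35% had it in a single replicate where the longest peak was 2 to 4 kb. This share was 30.4% where the longest peak was 8 kb or longer, and highest, 68.7%, where it was under 1 kb. For H3K4me3 these shares were 0.492%, 14.2% and 52.4%.

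The share of start sites with H3K27ac also varied with the length of H3K4me3, and was lower at both ends of the length range. Of all start site regions of H3K4me3, 99.0% of the 5893 with a longest peak of 2 to 4 kb had an H3K27ac peak in at least 1 list, against 61.8% of the 102 with 7 to 8 kb and 48.6% of the 70 with 8 kb or more. Among narrow peaks the share was 87.0% of the 1297 with 1 to 2 kb and 48.6% of the 276 under 1 kb. Among those with H3K4me3 in both 0 h lists, the share with no peak in either 24 h list was 19.7% under 1 kb, 1.83% for 1 to 2 kb and 0.136% for 2 to 4 kb. It was 1.98% for 7 to 8 kb, or 2 of 101 regions, of which *Zfpm1* was 1. *Lyl1*, *Zfpm1*, *Gfi1b* and *Nfe2*, which had no H3K27ac at the start, had longest H3K4me3 peaks of 8331, 7924, 8617 and 7533 bp. *Ldb1* had no H3K27ac at the start either, and its longest H3K4me3 peaks were 4644 and 5702 bp. That is the class of 4 to 6 kb, where 95.4% of regions had H3K27ac. However, these *Ldb1* regions lie 99 bp apart and together span 10488 bp, more than any peak of the lists, so their class is uncertain. From the lists, a start site without the mark and a domain longer than the lists hold cannot be told apart, and the part of length in the missing peaks was not tested.

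**Figure D2:**
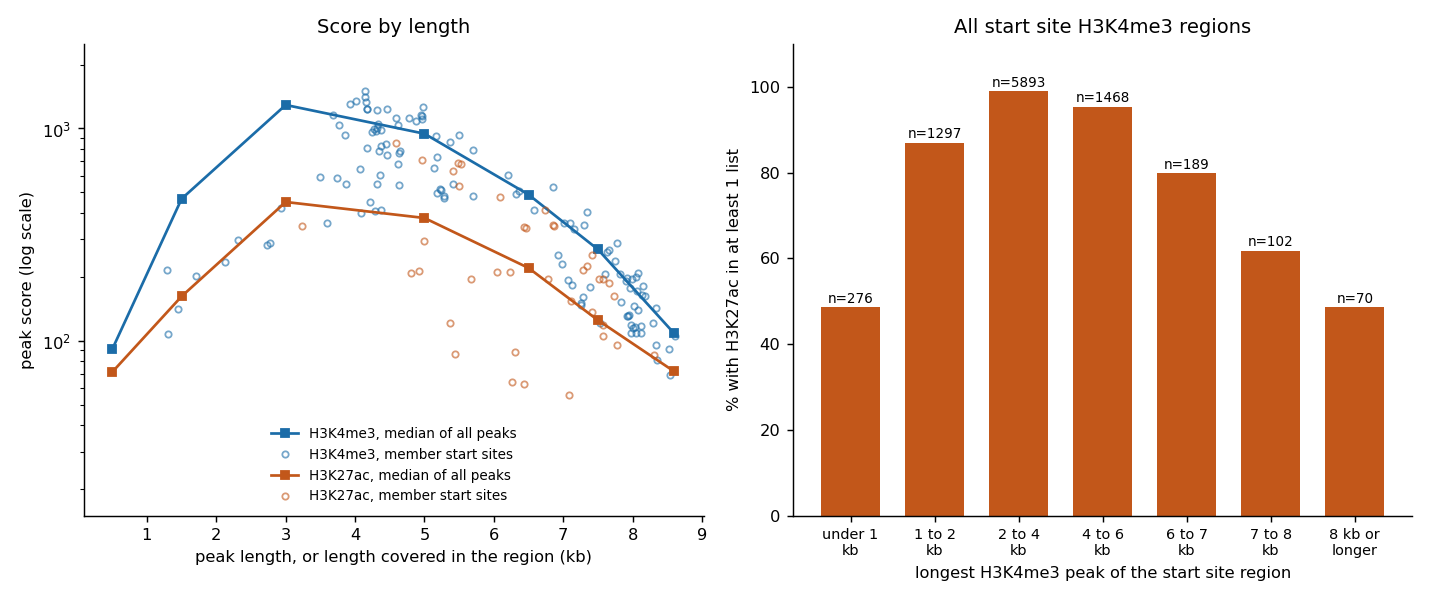
Left, score (log scale) against length (kb) of H3K4me3 (blue) and H3K27ac (orange) peaks, with lines through the median score of all peaks in each length class, set at a point within the class, and circles for the member start site regions in each list. Right, share of all H3K4me3 start site regions with an H3K27ac peak in at least 1 list, by the longest H3K4me3 peak, which is 48.6% under 1 kb, 99.0% at 2 to 4 kb and 48.6% at 8 kb or longer (n is the number of regions).

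*Tal1*, on chromosome 4 (115056426-115071755, plus strand), had no peak of either mark within 1 kb of its main start in any of the 20 lists. Around that start the lists had a gap of 25.8 kb without H3K4me3 and 18.4 kb without H3K27ac. Here too, a start without the marks and a domain longer than the lists hold cannot be told apart. The sites with peaks in the lists were distal, and a constant one lay beyond the gene at 39.5 kb from the start. H3K27ac at that place (chr4:115093411-115098381, overlapping coding and UTR sequence of the neighbor *Pdzk1ip1*) was in all lists with 3907 to 4918 bp, and its log2 difference was −0.0047 (SE 0.10, limma, adjusted p = 1.0). H3K4me3 (chr4:115095082-115097823) covered 2418 to 2635 bp in all lists, with a difference of −0.05 (SE 0.05).

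The longest *Tal1* region of H3K27ac (chr4:115069846-115077175) overlaps UTR sequence at the end of the gene. It covered 7323 and 7088 bp at 0 h, 4499 and 4617 bp after 2 h, 6090 and 4505 bp after 6 h, 6924 and 5200 bp after 12 h, and 4139 and 2699 bp after 24 h. Both 24 h lists lay below both 0 h lists, and the difference of −1.06 (SE 0.23) just missed the threshold (limma, adjusted p = 0.0503). The scores of these peaks, not comparable between lists, ran the other way. They were 103.5 and 111.0 in the 0 h lists and 307.5 and 404.9 in the 24 h lists. Before the start, at −7.19 kb, H3K27ac (chr4:115047040-115051442) had 3205 to 3960 bp in all lists, with a difference of 0.02 (SE 0.08). This region and the one at 39.5 kb were chosen for description after their values were seen.

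Over all their regions, the loci had 3 H3K4me3 calls among 47 tested (6.38%) between 24 h and 0 h, against 1.58% of all 14862 regions tested. There was 1 longer (background 0.471%) and 2 were shorter (background 1.11%). For H3K27ac, 7 of 49 were called (14.3%), against 6.32% of 21011, with 6 longer (background 3.30%) and 1 shorter (background 3.02%). This count depended on the settings, and was 4 when regions needed a peak in at least 1 list or in at least 5 lists. The calls at 113 and 61.0 kb of *Runx1* and 36.9 kb of *Lyl1* were close to the threshold (limma, adjusted p of 0.0454 to 0.0473). The F-test among time points called 3 H3K4me3 regions (background 1.25%) and 4 H3K27ac regions (background 5.61%). The median log2 difference of the members' regions was −0.04 for H3K4me3 and 0.07 for H3K27ac, beside −0.04 and 0.01 over all regions. The calls not described so far were 1 for H3K4me3 and 6 for H3K27ac.

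**Figure D3:**
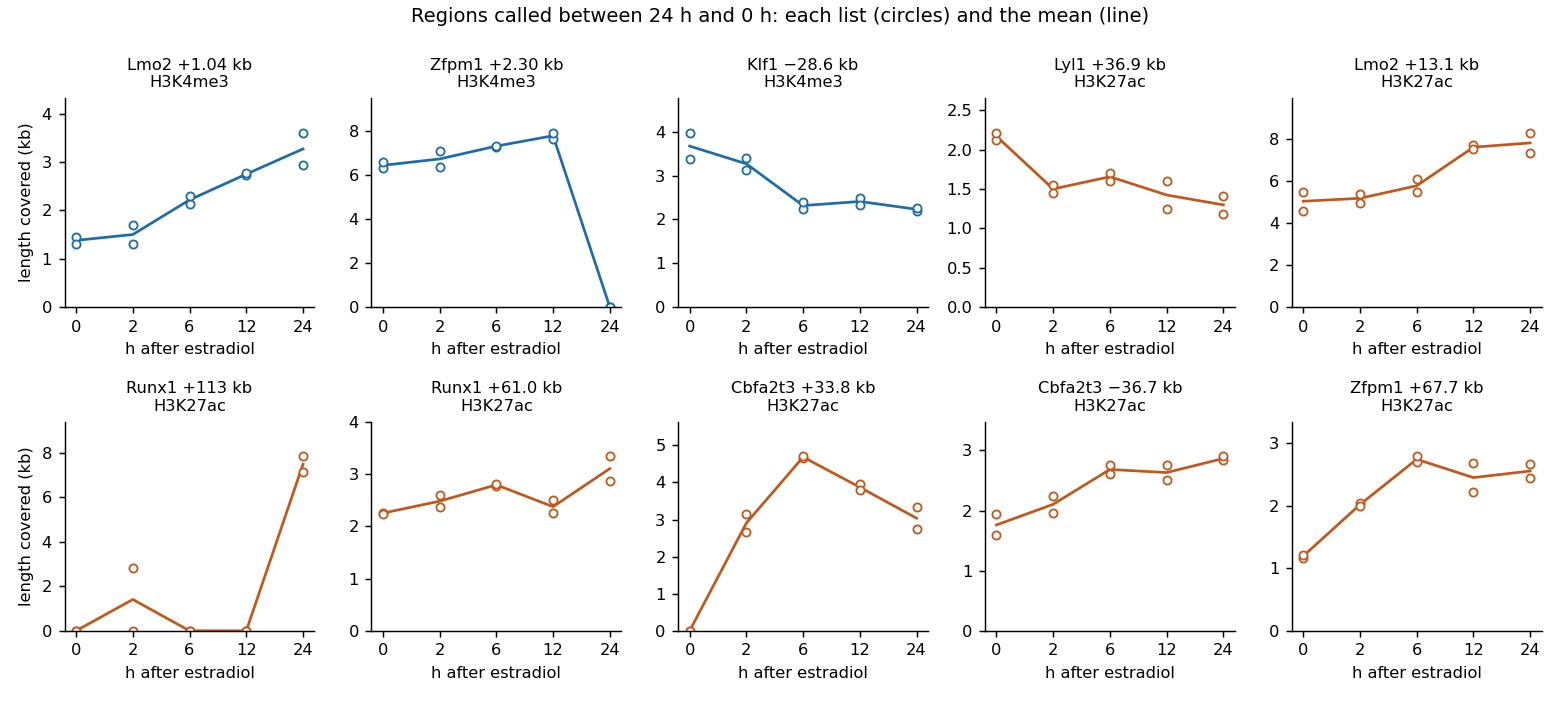
Length covered (kb) at 0, 2, 6, 12 and 24 h in the 10 member regions called between 24 h and 0 h, 3 of H3K4me3 (blue) and 7 of H3K27ac (orange), with a circle for each list, a line through the mean and the time points evenly spaced. The *Cbfa2t3* region at 33.8 kb is at 0 in both 0 h lists and at 2661 bp or more in all later lists.

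At *Cbfa2t3*, a region was gained early in an intron, 33.8 kb downstream of its main start (chr8:122662951-122667774). H3K27ac was absent in both 0 h lists and covered 3152 and 2661 bp at 2 h, 4671 and 4701 bp after 6 h, 3952 and 3790 bp after 12 h, and 2732 and 3340 bp after 24 h. Every list after 0 h had the peak, and the longest were at 6 h. The difference between 24 h and 0 h was called (limma, adjusted p = 2.63e-05), as was that among time points (limma F-test, adjusted p = 4.18e-05). The former stayed called whichever single list was left out. The 0 h lists, both at 0, have no spread. The peaks had low scores of 56.5 to 96.9, and with an equal number of top-scoring peaks from each list the call was lost (limma, adjusted p = 0.136). H3K4me3 had no peak at this place.

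Upstream of *Cbfa2t3*, at −36.7 kb, H3K27ac (chr8:122734084-122737607) covered 1586 and 1934 bp at 0 h, 2249 and 1957 bp after 2 h, 2615 and 2750 bp after 6 h, 2761 and 2501 bp after 12 h, and 2832 and 2898 bp after 24 h. All later lists lay above both 0 h lists. The log2 difference was 0.65 (SE 0.11, limma, adjusted p = 0.0171), and the call was lost without 0 h replicate 1 (adjusted p = 0.0656), 24 h replicate 1 (0.0668) or 24 h replicate 2 (0.0807). The 0 h CTCF list had a peak there (score 54.6) and the 24 h list did not. This region and those beyond *Zfpm1* lie in introns of Gm20388, a long GENCODE gene model that spans both loci. At 80.7 kb, another H3K27ac region was gained (chr8:122617926-122618939), with 964 and 746 bp at 24 h and no peak at 0 h, but it was in 6 lists and was not called (limma, adjusted p = 0.167). The region at 12.1 kb (chr8:122683866-122690171) had 6214 and 6268 bp at 12 h and no peak in any other list (limma F-test, adjusted p = 0.000654). Its lists at the other time points, all at 0, have no spread, and its 12 h scores were low, 78.7 and 76.1. The longest distal region in all lists, at −12.6 kb (chr8:122708094-122715234), had 7117 and 5949 bp at 0 h and 4774 and 3503 bp after 24 h, and its difference of −0.64 (SE 0.18) was not called (limma, adjusted p = 0.1). One H3K4me3 region of the locus, in an intron of *Galns* at 109 kb (chr8:122589626-122590235), was lost, with 267 and 289 bp at 0 h, 539 bp in 2 h replicate 1 and no later peak (limma, adjusted p = 0.515).

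Beyond the 3′ end of *Zfpm1*, at 67.7 kb, H3K27ac lengthened. The region (chr8:122348326-122351425) covered 1170 and 1217 bp at 0 h, 2041 and 1993 bp after 2 h, 2697 and 2786 bp after 6 h, 2216 and 2681 bp after 12 h, and 2441 and 2667 bp after 24 h. All lists after 0 h lay above both 0 h lists, with the step already made by 6 h. The log2 difference was 0.98 (SE 0.10, limma, adjusted p = 0.00212) and that among time points was called too (limma F-test, adjusted p = 0.00561). It was called under all 21 alternatives, with adjusted p of 0.00154 to 0.0169. The neighboring region at 57.7 kb (chr8:122337239-122342420) covered 2095 and 1776 bp at 0 h and 5182 and 2914 bp after 24 h, and missed the threshold (difference 0.94, SE 0.24, limma, adjusted p = 0.0809). Upstream, at −7.87 kb (chr8:122272657-122275884), H3K27ac had 896 and 1112 bp at 2 h and 3139 and 2144 bp after 6 h and no peak in the other lists (limma F-test, adjusted p = 0.00229). Those other lists, all at 0, have no spread, and the scores of the peaks were low, 59.34 to 75.35.

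At *Runx1*, a pair of regions in introns of the gene was called longer. At 113 kb (chr16:92709253-92717189), H3K27ac was gained, with no peak at 0 h and 7844 and 7159 bp at 24 h. Besides these a single list had it, with 2819 bp in 2 h replicate 2. The scores were low in the 24 h lists, 58.3 and 61.6, and 193 in 2 h replicate 2. The call (limma, adjusted p = 0.0454) was lost without any of 8 of the 10 lists, those at 0, 6, 12 and 24 h, with adjusted p of 0.0752 to 0.162. At 61.0 kb (chr16:92763449-92766789), it covered 2266 and 2244 bp at 0 h and 3341 and 2877 bp after 24 h, a difference of 0.43 (SE 0.09, limma, adjusted p = 0.0454). That call was lost without any list but 24 h replicate 2, with adjusted p of 0.0518 to 0.165. The region at 26.8 kb (chr16:92792300-92806431) went from 7836 and 7084 bp at 0 h, through 11733 and 10290 bp after 2 h, to no peak and 2351 bp at 24 h, and was not called (difference −3.42, SE 1.15, limma, adjusted p = 0.152). It was chosen for description after its values were seen.

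Of the other calls, H3K27ac 36.9 kb downstream of *Lyl1* (chr8:84736978-84739716), in an intron of the neighbor *Nfix*, covered 2128 and 2216 bp at 0 h and 1189 and 1410 bp after 24 h. The difference was −0.67 (SE 0.14, limma, adjusted p = 0.0473), lost without any of 8 of the 10 lists, all but those at 12 h, with adjusted p of 0.0668 to 0.187. The longest distal region near *Lyl1*, at 29.5 kb in *Nfix* (chr8:84728123-84733818), had 3130 to 5545 bp and was not called (limma, adjusted p = 0.562). H3K27ac at the start of the neighbor *Ier2* (chr8:84658820-84666541) was gained, with 7688 and 7589 bp at 24 h and none at 0 h, but it was in 4 lists and was not called (limma, adjusted p = 0.214). In the *Klf1* window, H3K4me3 at the start of *Syce2* (chr8:84871211-84875357) covered 3368 and 3974 bp at 0 h, 3406 and 3128 bp after 2 h, 2243 and 2386 bp after 6 h, 2493 and 2323 bp after 12 h, and 2194 and 2265 bp after 24 h. All lists from 6 h on lay below the earlier ones, and the difference was −0.67 (SE 0.08, limma, adjusted p = 0.0115), not called without 24 h replicate 1 (adjusted p = 0.0537). *Syce2* is a meiotic gene and no member. The longest distal *Lmo2* region, at −31.15 kb (chr2:103925125-103928558), kept 2439 to 3334 bp (difference −0.20, SE 0.09). The windows of *Ldb1*, *Gfi1b* and *Klf1* held no distal H3K27ac region at all, and that of *Nfe2* held 1, in a single list.

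By presence alone, 0 H3K4me3 regions at the loci were gained (both lists at 24 h and neither at 0 h), against 0.456% of all regions, and 2 of 53 were lost (3.77%, background 3.88%). For H3K27ac, 4 of 58 were gained (6.90%, background 3.43%) and 0 were lost (background 4.18%). The lost regions were those at *Zfpm1* and in *Galns*, and the gained regions were those at 33.8 and 80.7 kb of *Cbfa2t3*, at 113 kb of *Runx1* and at *Ier2*. The share lost for H3K4me3 was near that over all regions.

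**Figure D4:**
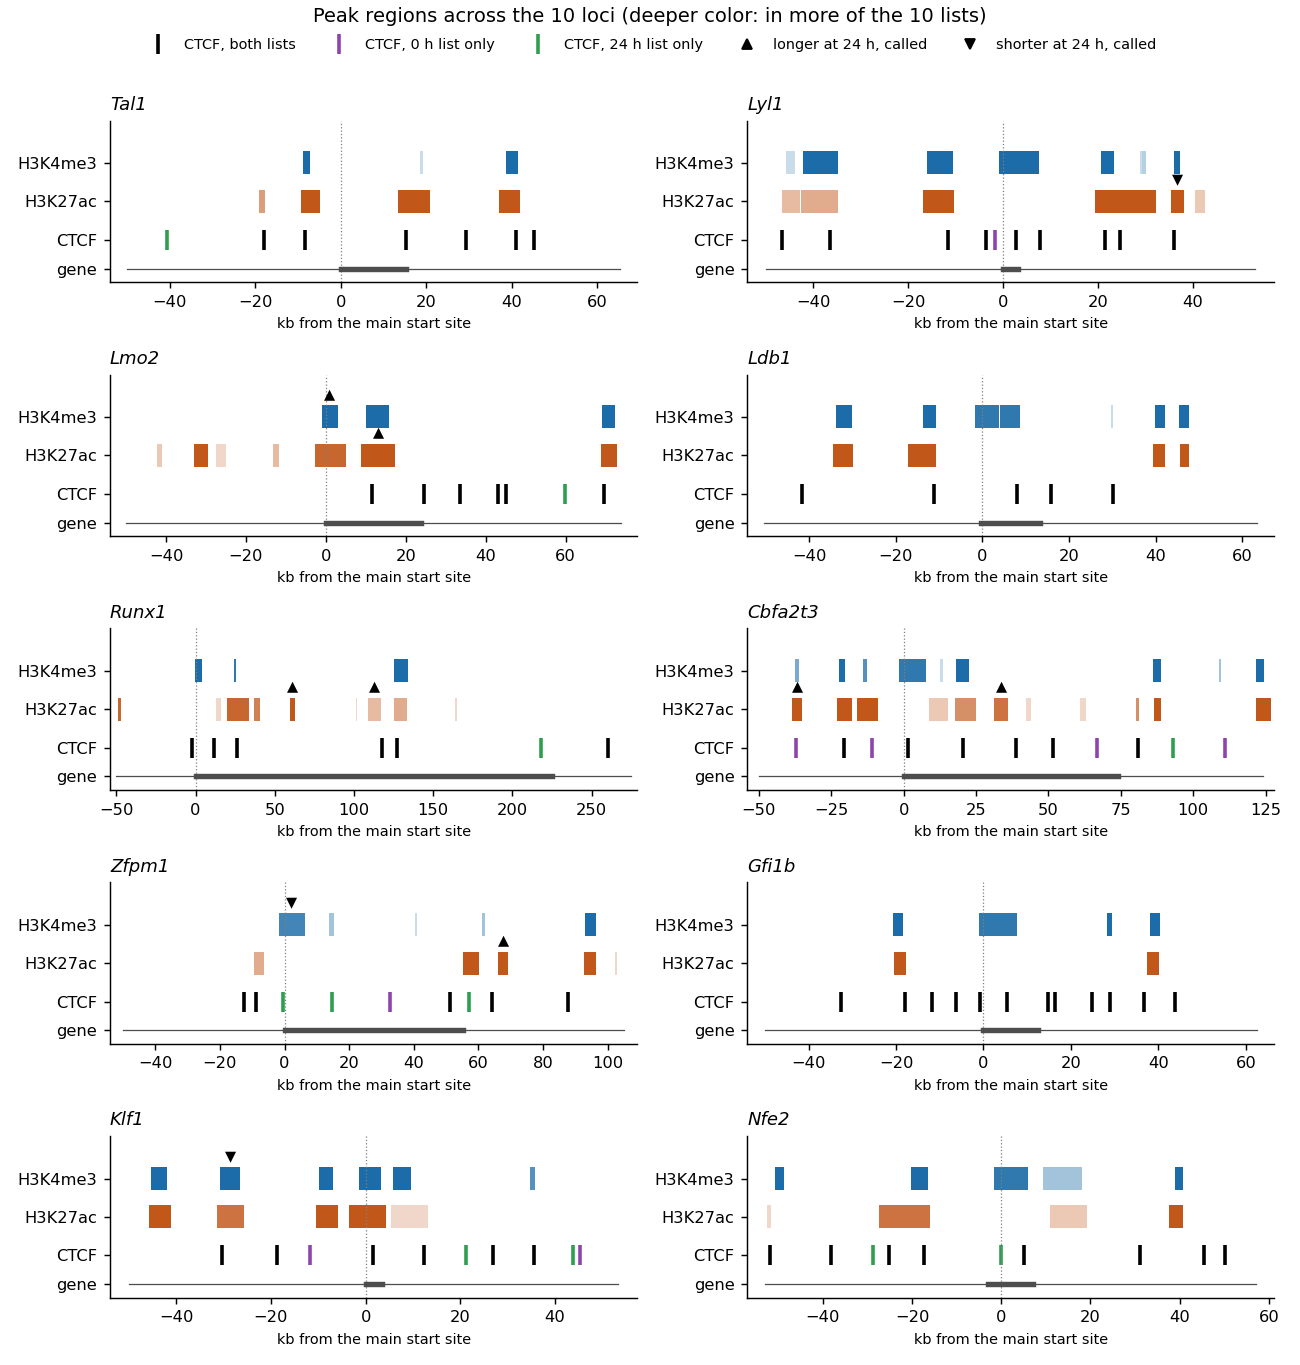
Regions of H3K4me3 (blue) and H3K27ac (orange) and CTCF peaks (ticks) across each of the 10 loci, in kb from the main start site in the direction of transcription. Deeper color means that more of the 10 lists held the region, triangles mark the regions called longer or shorter at 24 h than at 0 h, and ticks are black where both CTCF lists held the peak. The thick gray bar is the gene and the thin line the window. The *Tal1* start has no region above it.

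Summed over the whole window, the member loci were more densely marked than most. At 0 h the median share of the window under H3K4me3 was 10.3% for the 10 genes, 5.57% for 23 network partners, which are named with their own results, and 2.55% over all protein-coding genes, and 9.89%, 6.11% and 2.94% under H3K27ac. *Lyl1* had the highest H3K4me3 share, 24.3% of its window, above 99.6% of genes, and *Tal1* the lowest, 3.74%. Windows that hold many genes hold many promoters, so these shares include those of neighbors such as *Ier2* and *Trmt1* near *Lyl1*.

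The totals changed in 2 of 10 loci for H3K4me3 (background 1.01%) and in 1 of 10 for H3K27ac (background 5.44%). At the *Zfpm1* locus the covered length of both marks changed, in opposite directions. H3K4me3 there covered 10415 and 9945 bp at 0 h, 9373 to 12249 bp in the lists at 2, 6 and 12 h, and 4260 and 3725 bp at 24 h, which are the lowest values. The log2 difference was −1.31 (SE 0.12, limma, adjusted p = 0.00270), and the lost start site peak alone is longer than the fall. For that peak, a loss of the mark and a domain longer than the lists hold cannot be told apart. H3K27ac covered 6541 and 5764 bp at 0 h, 8122 and 8266 bp after 2 h, 12611 and 11969 bp after 6 h, 8208 and 9121 bp after 12 h, and 10902 and 8904 bp after 24 h. All later lists lay above both 0 h lists, and the difference was 0.67 (SE 0.12, limma, adjusted p = 0.0253). That call was lost without 0 h replicate 1 (adjusted p = 0.065), 0 h replicate 2 (0.117) or 24 h replicate 1 (0.0825).

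H3K4me3 at the *Lmo2* locus covered 9337 and 9157 bp at 0 h, 9102 and 9574 bp after 2 h, 10168 and 9966 bp after 6 h, 10812 and 10600 bp after 12 h, and 12325 and 11377 bp after 24 h. Every list from 6 h on lay above all earlier lists. The difference was 0.35 (SE 0.06, limma, adjusted p = 0.0288), lost without any of 8 of the 10 lists, all but those at 2 h, with adjusted p of 0.0516 to 0.155. With only peaks at or above the median score it was −0.61 (adjusted p = 0.742), and that at *Zfpm1* was 0.01 (adjusted p = 1.0). H3K27ac at *Lmo2* went from 16319 and 13868 bp at 0 h to 21386 and 22461 bp at 24 h and missed the threshold (difference 0.54, SE 0.14, limma, adjusted p = 0.0712). At *Tal1* it went from 14894 and 15237 bp to 11838 and 10776 bp (difference −0.41, SE 0.10, limma, adjusted p = 0.0684). The other loci were not called. They ranged from −0.70 (*Gfi1b*, SE 0.38) to 0.43 (*Cbfa2t3*, SE 0.20) for H3K4me3 and from −0.29 (*Runx1*, SE 0.41) to 0.64 (*Nfe2*, SE 0.63) for H3K27ac. Replicates at these extremes were far apart. H3K4me3 covered 4617 and 13586 bp at 24 h at *Gfi1b*, and 11577 and 19782 bp at 0 h at *Cbfa2t3*. H3K27ac at 24 h covered 12599 and 23317 bp at *Runx1*, and 12994 and 20130 bp at *Nfe2*. The median difference over the 10 loci was −0.11 for H3K4me3 and 0.20 for H3K27ac, beside −0.03 and 0.05 over all genes tested.

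**Figure D5:**
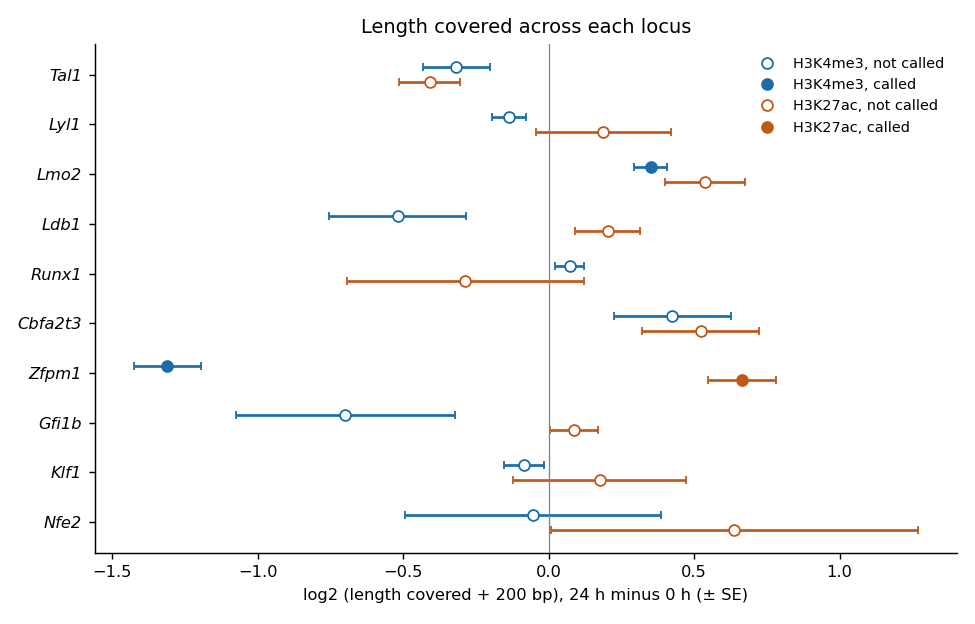
Difference between 24 h and 0 h in log2(length covered + 200 bp) over the window of each gene (rows) for H3K4me3 (blue) and H3K27ac (orange), with error bars of 1 SE from limma over 2 lists at each time. Filled circles mark the called loci, *Lmo2* (0.35) and *Zfpm1* (−1.31) for H3K4me3 and *Zfpm1* (0.67) for H3K27ac.

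CTCF was followed at the same loci because its peaks mark possible loop anchors. With 1 list at each time no difference could be tested. The loci held 78 peaks at 0 h and 80 at 24 h. Of the 0 h peaks, 8 (10.3%) had no overlapping peak at 24 h, beside 7.87% of all peaks, and of the 24 h peaks, 11 (13.8%) had none at 0 h, beside 26.7%. The 24 h list held more peaks in all. All 12 peaks at *Gfi1b* and all 5 at *Ldb1* were shared. The peak inside *Klf1* (chr8:84902355-84904457) was shared too, with lengths of 980 bp in the 0 h list and 2103 bp in the 24 h list, and lay in both histone start site regions.

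The main start sites of *Zfpm1* and *Nfe2* had a CTCF peak in the 24 h list alone. That at *Zfpm1* (chr8:122281064-122282231) lay in the H3K4me3 region that was missing at 24 h and covered 1168 bp, with a score of 53.7, close to the lowest score of the lists. That at *Nfe2* (chr15:103254957-103255834) covered 878 bp with a score of 91.7. A further *Nfe2* start, at 5.08 kb, had a peak in both lists (chr15:103249777-103250945), with scores of 364 at 0 h and 366 at 24 h. *Zfpm1* had the most peaks in the 24 h list alone, 3 of 8 at 24 h. Its others were at 14.8 and 57.0 kb, and the latter lies in the H3K27ac region at 57.7 kb. *Cbfa2t3* had the most peaks in the 0 h list alone, 4 of 10, among them that in the H3K27ac region at −36.7 kb. Scores of peaks in a single list were low, with medians of 69.8 for 0 h alone and 72.1 for 24 h alone, beside 182.4 for peaks in both.

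Beyond *Tal1*, a shared CTCF peak at 41.1 kb (chr4:115096963-115098069) overlapped the constant regions of both histone marks. In all, 37 of the 88 CTCF regions overlapped a histone region that had a peak in a 0 h or 24 h list, 30 with H3K4me3 and 24 with H3K27ac. The core CTCF motif was found in 60.9% of the 69 CTCF regions of the loci that both lists held, 37.5% of the 8 at 0 h alone and 54.5% of the 11 at 24 h alone, beside 65.1%, 56.5% and 63.9% over all CTCF regions.

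The same measures were taken at 23 genes whose products work with these factors, listed by role and not by how they moved. They are the E proteins *Tcf3*, *Tcf4* and *Tcf12*, the LDB1 and LMO2 partners *Ssbp2*, *Ssbp3*, *Ssbp4* and *Lmo4*, the corepressor subunits *Rcor1*, *Kdm1a*, *Hdac1*, *Hdac2*, *Runx1t1*, *Cbfa2t2*, *Chd4* and *Mta2*, the RUNX1 partner *Cbfb*, the small MAF genes *Mafg*, *Mafk* and *Maff*, and the related factors *Gfi1*, *Klf3*, *Foxo3* and *Gata2*. H3K4me3 was present in all 10 lists within 1 kb of the main start in 19 of the 23, and H3K27ac in 16. Among the 10 core genes these numbers were 4 (*Lyl1*, *Lmo2*, *Runx1* and *Klf1*) and 1 (*Klf1*). For H3K4me3, *Ldb1*, *Cbfa2t3*, *Gfi1b* and *Nfe2* missed the count by a single list and *Zfpm1* by the 24 h lists, while *Tal1* had no peak. For H3K27ac, *Lmo2* had it in 9 lists and 8 genes in none. Of the partners' start site regions, 23 of H3K4me3 and 21 of H3K27ac were tested. Of these, 0 were called, beside 1.58% and 6.32% of all regions tested, with lowest adjusted p of 0.128 and 0.104 (limma). Among so few regions, 0 calls do not set the partners apart. At an unadjusted p under 0.05, 3 H3K4me3 and 4 H3K27ac regions passed. Over the whole windows of the partners, limma called 0 of 21 tested for H3K4me3, beside 1.01% of all genes tested. There, 5 were at an unadjusted p under 0.05. For H3K27ac it called 1 of 22, beside 5.44% of all genes tested. The one called was *Ssbp4*, where H3K27ac covered 20722 and 20429 bp at 0 h and 27133 and 26894 bp after 24 h, a log2 difference of 0.39 (SE 0.08, limma, adjusted p = 0.0334).

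By presence, 0 of the partners' start site regions, 24 for each mark, were gained (background 0.456% for H3K4me3 and 3.43% for H3K27ac). Those lost were 1 of H3K4me3 (background 3.88%) and 2 of H3K27ac (background 4.18%), counts too small to set the partners apart. H3K4me3 at *Gfi1*, the paralog of *Gfi1b*, had 1412 and 951 bp at 0 h, 1165 bp in 12 h replicate 1 and no peak elsewhere. H3K27ac at *Ssbp3*, whose product stabilizes LDB1, had 7718 and 7437 bp at 0 h and none at 24 h, with peaks in 6 lists. H3K27ac at a start of *Foxo3*, a factor active in maturing red cells, had 4093 and 3598 bp at 0 h and none at 24 h, with peaks in 5 lists. *Gata2*, which encodes another GATA factor, and *Runx1t1*, a paralog of *Cbfa2t3*, had no peak of either mark within 1 kb of the start in any list, and were named after their values were seen. The *Gata2* window had no H3K4me3 in any list. Its H3K27ac covered 1000 and 862 bp at 0 h, 6957 and 6198 bp after 24 h and 1450 to 8097 bp in the lists between. The log2 difference of 2.58 (SE 0.79) was not called (limma, adjusted p = 0.11). The paper reports high GATA2 expression in undifferentiated cells and its downregulation after β-estradiol, the opposite direction in another measure. It describes modest late changes in marks at the *Gata2* promoter and enhancers. At *Gata2* too, a start without the mark and a domain longer than the lists hold cannot be told apart.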

How the data were processed

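ChIP-seq libraries of H3K4me3, H3K27ac and CTCF from G1ER cells were aligned by the authors to mm10 with Bowtie2, and peaks were called per library with MACS without model building. The MACS version, threshold and control are not given in the sources used here. The labels' protocol names a human build, but all positions fitted the lengths of the mm10 chromosomes. The deposited lists give each peak's chromosome, start, end and MACS score, the latter at least 50 in every list, and hold no read counts, so depth and its precision are unknown. The score is not comparable between libraries of unknown depth and served to rank peaks, set a minimum or describe a peak.

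The members and lists were chosen with earlier results of these data known. Samples were grouped by mark and time from their titles. Peaks of the 10 lists of a histone mark were merged where they touched. The length covered in each list was compared by limma 3.58.1 in R 4.3.3 (lmFit, then eBayes with a trend), as log2(covered bp + 200), with a mean for each time point. All regions that 2 or more lists held entered the fit, and a difference was called at a Benjamini-Hochberg adjusted p under 0.05. The same fit was made for the summed length in gene windows. Other steps used Python 3.11.15, numpy 2.4.6, pandas 2.3.3 and matplotlib 3.10.9. The fit was tested on simulated lengths with normal noise, from which peaks that are present or absent depart. The p-values measure the spread between these lists, which may be technical.

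Named regions were all start site regions of the 10 genes, distal regions called, gained or lost, and the longest distal H3K27ac region in all lists of each locus. The listed marker name Hbb-b1 was replaced by the GENCODE names *Hbb-bs* and *Hbb-bt*. Results for 2 of the listed markers are not reported here. The alternatives were a score filter, equal numbers of peaks, pseudocounts of 50 and 1000 bp, filters of 1 or 5 lists, scaling by total covered length, a replicate block, the 4 lists at 0 h and 24 h alone, merging within 500 bp, windows of 25 and 100 kb, start sites inside the region or within 2 kb, CTCF overlap of 50%, and leaving out each list. Requiring all 10 lists and leaving out regions with a peak of 6 kb or longer were added after seeing the data.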

Additional observations from a re-analysis of the deposited data

How the results depend on the processing

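Of the 13 regions and loci called, 271 alternatives kept 203 calls and lost 65, and 3 reversed, all with peaks at or above the median score: H3K4me3 over the *Lmo2* locus (−0.61) and the *Zfpm1* locus (0.00997), and H3K27ac at the proximal *Lmo2* promoter (−4.71). With that filter, H3K4me3 called 0 member regions in place of 3, 0 by the F-test in place of 3, 0 loci in place of 2 and 0 gained or lost in place of 2, and H3K27ac called 3 regions in place of 7. With a replicate block, H3K4me3 called 1 region by the F-test and 1 locus. The block left 5 H3K27ac regions called in place of 7, with 3 longer in place of 6. Over all regions the block gave 146 H3K4me3 calls in place of 235 and 1177 H3K27ac calls in place of 1327. Deviations of lists with the same replicate number had r from −0.0758 to 0.0318 for H3K4me3 and −0.0293 to 0.0168 for H3K27ac, over 10 pairs of time points each. These values cannot show whether such lists shared a culture or preparation. With the 4 lists at 0 h and 24 h alone, 1 locus was called for H3K4me3 and 0 for H3K27ac in place of 1. With a peak in at least 1 list or in at least 5 lists, 4 H3K27ac regions were called. The F-test called 2 H3K27ac regions in place of 4 with at least 5 lists and 2 with all 10. Scaling by total covered length gave 2 H3K27ac loci. With windows of 100 kb, 0 H3K27ac loci were called and 8 regions were gained or lost in place of 4, and with 25 kb, 1 H3K4me3 region was gained or lost. CTCF peaks at 24 h alone numbered 4 with equal numbers of peaks, 7 with 25 kb and 27 with 100 kb, in place of 11. Leaving out 1 list gave 3 to 4 H3K4me3 and 3 to 5 H3K27ac regions, 1 to 3 and 3 to 6 by the F-test, 1 to 2 and 0 to 2 loci, and 2 to 6 and 4 to 10 gained or lost. Without 1 list, gained or lost rests on a single list at 0 h or 24 h. The cause of these shifts was not tested. No read counts are in the lists, so depth is unknown and its part in any of these results could not be tested.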
